A study of Ovis aries with 2 samples.

Results

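Among the cells recovered from a vascular graft that had spent 12 weeks in sheep, a small set of barcodes was rich in transcripts of ACP5, CTSK and MMP9, 3 genes that osteoclasts express strongly. Members of the set were chosen by these transcripts: a barcode of the graft library entered if it held at least 5000 unique molecular identifiers (UMIs, counted transcript molecules), at most 20% of them from the 13 mitochondrial protein genes, and a level of ACP5, CTSK and MMP9 together of at least 2000 CPM (counts per 1000000 UMIs of the barcode or, for sums, of the group). The rule found 61 of the 792 graft barcodes within the same UMI and mitochondrial limits (7.70%, exact Clopper-Pearson 95% interval 5.94 to 9.78%), of 1229 graft barcodes and 12600 barcodes in the whole series. The level of the 3 genes in the members is therefore a description and carries no test. A barcode stands for the content of 1 droplet, which is usually 1 cell but can be several.

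The series holds 2 droplet-based single-cell RNA libraries from sheep aged 1 to 2 years, 1 from the native carotid artery and 1 from the graft, which is titled H2R5-ATEV and belongs to a series on grafts implanted without cells. The native library's title names the aorta, while its source and tissue are given as carotid artery. Both vessels were explanted at 12 weeks, filled with collagenases, elastase, neutral protease and DNase, and the released cells were strained and cleared of red cells by lysis. The labels give neither the number of animals nor a repeat library, so no difference below has a replicate check. Intervals of levels, ratios and shares cover counting error only, and those of list medians the spread over a list's genes. Cells of 1 library are not replicates.

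Osteoclasts arise from the monocyte and macrophage lineage under the cytokines CSF1 and RANKL and fuse into cells with many nuclei. They attach to mineralised matrix through an integrin made of ITGAV and ITGB3 and seal off a space beneath them. Into it they pump protons with a vacuolar ATPase and release the protease cathepsin K (CTSK), the phosphatase TRAP (ACP5) and the gelatinase MMP9. CTSK and MMP9 are also made by activated macrophages and by some stromal cells, and macrophages around foreign material can fuse as well.

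Members were compared with the 495 graft barcodes within the same limits that lay below the level and carried at least 3 UMIs of 6 macrophage genes together (C1QA, C1QB, AIF1, CSF1R, CTSS and CD163). This comparator is mixed: 252 of its barcodes (50.9%) held at least 10 UMIs, after thinning to 5000 UMIs, of an endothelial, smooth muscle, fibroblast, T or NK, or B cell marker list. A stricter comparator kept the 294 barcodes with at least 1000 CPM of the 6 macrophage genes, and 59 of these (20.1%) carried such markers of other cell types. Members had a median of 49390 UMIs per barcode (9685 to 340498), against 33187 in the comparator and 31186.5 in the stricter one. The graft library summed to 36238351 UMIs, and 7 barcode sequences occurred in both libraries, none of them a member's.

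The 3 selecting genes were spread very unevenly over the members. Their sum ran from 2014 to 98425 CPM with a median of 3341. It lay at 2000 to 3000 in 25 members, at 3000 to 4000 in 15, at 4000 to 8000 in 10, and at 8000 or more in 11. The 5 members nearest the level lay at 2014, 2023, 2073, 2141 and 2148 CPM and the 5 nearest barcodes below it at 1963, 1959, 1940.5, 1940.2 and 1914, so the level cuts through a continuous range. A single barcode with 340498 UMIs, the second by level, held 37.0% of all the members' UMIs of these genes, and the 3 barcodes richest in them held 62.6%. Values summed over members follow these few barcodes, and the 11 members at 8000 CPM or more (the upper members) and the 50 below (the lower members) are therefore described apart.

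CTSK (ENSOARG00020009669) had the most UMIs of the 3 genes in 46 members, 43 of them among the 50 lower ones. ACP5 (ENSOARG00020007452) led in 11 members, 7 of them among the 11 upper ones. MMP9 (ENSOARG00020017117) led in 4 members and was without a UMI in 16, while ACP5 was without a UMI in 2. The lower members thus entered mostly on CTSK, and the upper ones mostly on ACP5 and CTSK together.

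**Figure D1:**
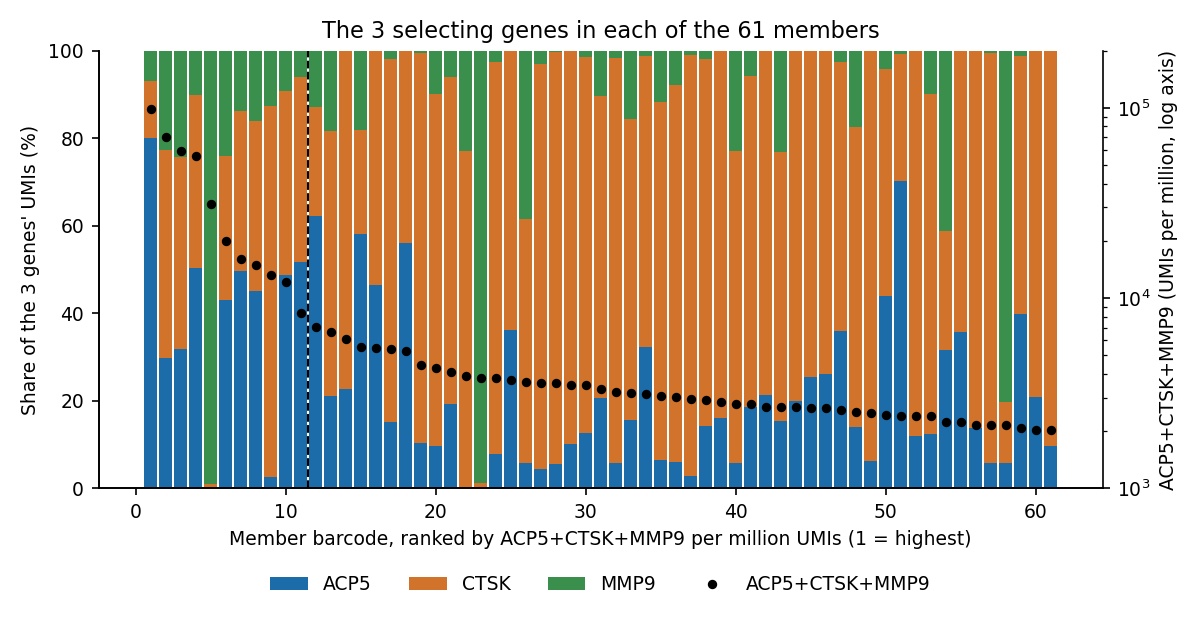
Share of ACP5, CTSK and MMP9 in the 3 genes' UMIs (bars, left axis, percent) and their summed level in CPM (black points, right log axis) in the 61 members, ranked from the highest sum to the lowest; the dashed line parts the 11 members at 8000 or more from the other 50. CTSK has the largest share in 46 bars and MMP9 in 4.

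The label's other markers, ATP6V0D2 and ITGB3, were not used by the rule and did not mark all members alike. ATP6V0D2 (ENSOARG00020007086) encodes the osteoclast form of a proton pump subunit, and ITGB3 (ENSOARG00020023076) the beta chain of the osteoclast integrin. From the first to the 11th upper member, ATP6V0D2 stood at 790.4, 1351, 729, 547, 0, 1186, 138, 84.9, 109, 883 and 374 CPM. ITGB3 stood at 1131, 1965, 1499, 972, 205, 1166, 363, 467, 113, 552 and 543 in the same order. Both genes were detected in 10 of the 11 upper members, and the fifth had no ATP6V0D2 UMI. Of the 50 lower members 7 had a UMI of both and 18 of neither, against 10 of the 294 barcodes of the stricter comparator (3.40%) with both.

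At equal depth the upper and lower members lay far apart. After thinning each barcode to 5000 UMIs, an ATP6V0D2 UMI was left in 9 of 11 upper members (81.8%, 48.2 to 97.7%), 4 of 50 lower ones (8%, 2.22 to 19.2%) and 13 of 294 in the stricter comparator (4.42%, 2.38 to 7.44%). An ITGB3 UMI was left in 10 of 11 upper members (90.9%, 58.7 to 99.8%), 2 of 50 lower ones (4%, 0.488 to 13.7%) and 36 of 294 (12.2%, 8.73 to 16.5%). The 236 graft barcodes that were neither members nor comparator had an ITGB3 UMI left in 43 (18.2%, 13.5 to 23.7%) and an ATP6V0D2 UMI in 0. Detection of ITGB3 was thus not confined to members or barcodes with macrophage markers. In 26 graft barcodes with T cell markers, a measure of free RNA, the thinned counts were 0 for ATP6V0D2 and 2 for ITGB3, which for ATP6V0D2 allows a share of up to 11.5% by a limit of 3 barcodes and 13.2% by the exact interval, with a median of 8161 UMIs per barcode before thinning. Unthinned, ATP6V0D2 had a UMI in 10 upper members, 25 lower ones and 12.2% of the stricter comparator, and ITGB3 in 11, 14 and 40.1%. The lower members' ITGB3 share lay below that of the T cell barcodes (7.69%, 0.946 to 25.1%). Both shares rest on 2 barcodes and their intervals overlap, so the lower members' share is not shown to stand above background. Single lower members differed: the 15th by level had 23 ITGB3 UMIs (489 CPM) with ATP6V0D2 and DCSTAMP at 128 CPM each, and the 12th had 21 ITGB3 UMIs. The set as a whole is therefore not called osteoclasts here. Of the 11 upper members 10 carried both ATP6V0D2 and ITGB3, and 36 of the 50 lower ones had no ITGB3 UMI. The label's remaining markers, ACP5, CTSK and MMP9, are the rule's own genes, so carrying them says little more. The 10 include the seventh and eighth members, which also carried fibroblast markers.

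Of the 11 upper members, 3 carried markers of other cell types, the fifth, seventh and eighth by level. The following values are for the other 8, which held between 45303 and 340498 UMIs (median 94331.5), beside the quartiles of the stricter comparator. Over all 11407 compared genes outside the rule, all 8 lay above the comparator's upper quartile for 160 genes (1.4%) and all 8 below its lower quartile for 99 (0.868%). These counts are not at equal depth, as the stricter comparator had a median of 31186.5 UMIs. For a gene detected in few of its barcodes, 1 UMI can lie above the upper quartile.

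Many genes for acid secretion, though not all, were high in all 8. Of 19 compared proton pump genes, 12 had all 8 members above the upper quartile. TCIRG1, the pump subunit whose loss causes osteopetrosis, ranged from 339.6 to 1645 CPM (median 919.6) in the 8 members. The stricter comparator had a median of 98.3 and an upper quartile of 170.0, and 7 of the 8 exceeded its highest barcode, at 435. ATP6V0D2 ranged from 109 to 1351 (median 759.6), and 6 of 8 exceeded the comparator's highest value of 404. The catalytic subunit ATP6V1A had a median of 799 in the 8 members against 70.5, and the stalk subunit ATP6V1C1 one of 739.8 against 68.8. The alternative forms of 2 pump subunits did not follow: ATP6V0A1 had a median of 33.1 against 83.6 and was below the lower quartile in 5 of 8, and ATP6V0D1 had medians of 109 and 101.

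On the resorption list, 7 of 16 compared genes lay above the upper quartile in all 8 members, of which TCIRG1 and ATP6V1C1 are also on the proton pump list. CA2, the carbonic anhydrase that supplies protons, ranged from 90.5 to 637 (median 176) against a comparator median of 0 and upper quartile of 21.9. SLC4A2, the bicarbonate and chloride exchanger of the osteoclast's rear membrane, ranged from 22.1 to 1043 against an upper quartile of 20.9. SNX10, a sorting nexin needed for osteoclast acidification, had a median of 1197 against 53.3. The chloride channel CLCN7 lay above the upper quartile in 7 of 8, with medians of 137 and 27.8. CKB, a creatine kinase that buffers ATP, ranged from 1169 to 16658 with a median of 3973, against a median of 267 and a highest comparator value of 2055, and 6 of 8 exceeded that value.

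**Figure D2:**
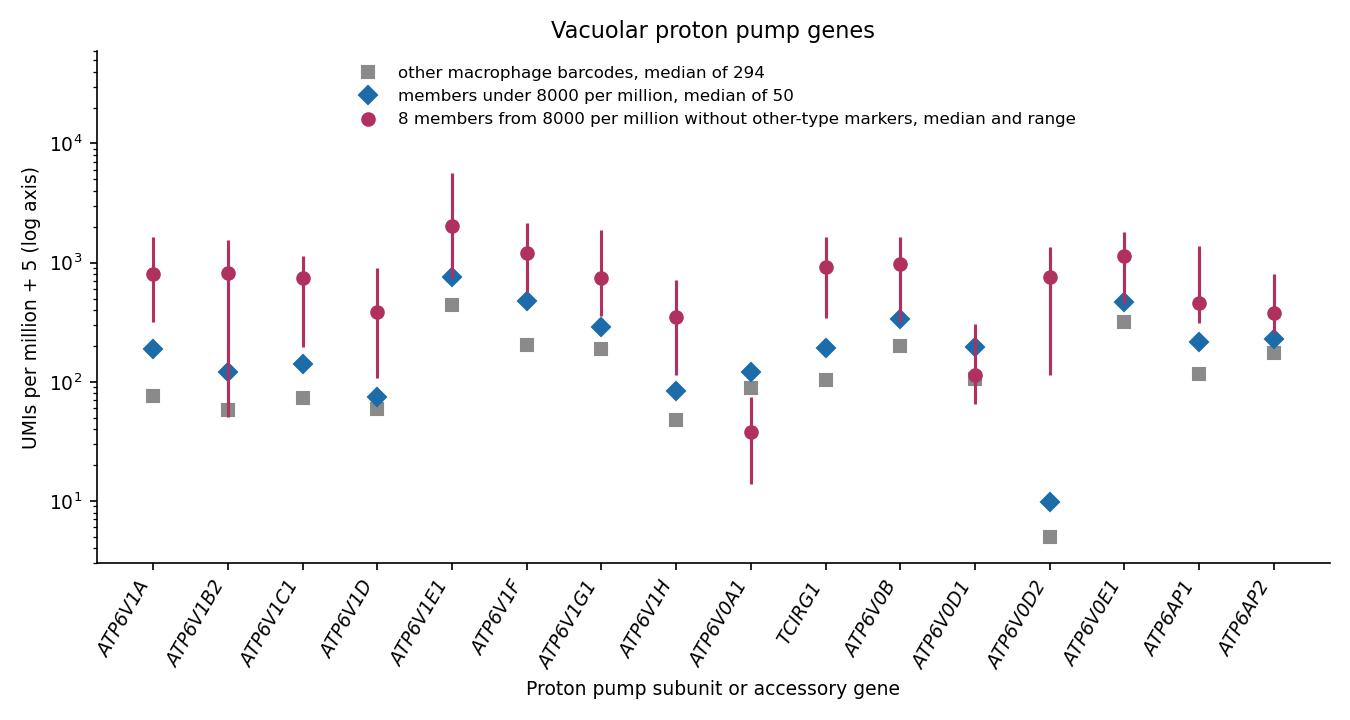
CPM plus 5 (log axis) of 16 proton pump genes: medians of 294 other macrophage barcodes (grey squares) and of the 50 members under 8000 CPM (blue diamonds), and median with range of the 8 members at 8000 or more without other-type markers (red circles and lines). ATP6V0D2 has the widest separation, with medians of 0, 4.84 and 759.6 CPM before the 5 is added, and ATP6V0A1 lies below the other barcodes in the 8.

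SPP1, which encodes osteopontin, a phosphoprotein of bone matrix and of activated macrophages, stood in the upper members in rank order at 3487, 22966, 11768, 12492, 315, 3060.5, 3026, 2970.3, 91445, 9536 and 44866 CPM. The ninth member alone held 57.8% of all the members' SPP1 UMIs. All 8 members without other-type markers lay above the stricter comparator's upper quartile of 128, and 5 above its highest barcode at 10268. Of the lower members 39 had an SPP1 UMI, and the highest stood at 12341.

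Regulators of osteoclast formation were less uniform. OSCAR, a collagen receptor that costimulates osteoclast precursors, ranged from 54.7 to 589 in the 8 members and was the 1 gene of 28 compared regulators with all 8 above the upper quartile, which was 15.8. NFATC1, the transcription factor that drives osteoclast differentiation, ranged from 30.8 to 1005 with a median of 325 against 28.1, and 6 of 8 lay above the upper quartile of 66.3. TNFRSF11A, the receptor for RANKL, had medians of 104 and 31.1 with 5 of 8 above the upper quartile. JDP2, an AP-1 family factor, was above it in 7 of 8. FOS was below the lower quartile in all 8, with a median of 415 against 2273. FOS also belongs to the list of genes that respond to tissue dissociation, of which 6 of 17 compared were below the lower quartile in all 8 (FOS, JUN, EGR1, ATF3, IER3 and DUSP1). The part of dissociation in these values was not tested.

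CALCR, the calcitonin receptor of mature osteoclasts, had 0 UMIs among the members' 4115065, which allows up to 0.729 CPM (3 UMIs). TNFSF11, which encodes RANKL itself, had 39 UMIs in the members, found in 1 upper and 4 lower ones. TNFRSF11B, which encodes the RANKL decoy osteoprotegerin, was at 1.94 CPM over the members' summed UMIs, at 63.9 in the comparator, at 2.47 in the stricter one and at 147 in the remaining graft barcodes.

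Fusion and adhesion genes divided by member. Of 16 compared fusion genes, 2 had all 8 above the upper quartile: DCSTAMP, and SNX10, which is also on the resorption list. DCSTAMP, a membrane protein required for osteoclast fusion, was detected in all 8 members at 3.42 to 558 CPM and in 24 of the 50 lower ones, whose highest value was 128. The ninth member, the lowest of the 8, lay above the upper quartile with 1 UMI of 292557. At equal depth DCSTAMP was left in 6 of 11 upper members (54.5%), 6 of 50 lower ones (12%) and 9 of 294 (3.06%). Unthinned, DCSTAMP had a UMI in 10 of 11 upper members, 24 of 50 lower ones and 15% of the stricter comparator. OCSTAMP, its partner in fusion, had UMIs in 5 of 11 upper members, 1 lower member and none of the 495 comparator barcodes, and none of these UMIs was left after thinning. RUFY4 was detected in 7 of the 8, at up to 329, and in 2 lower members. Among 38 compared podosome and adhesion genes, 5 had all 8 above the upper quartile: ITGB3, the collagen receptor chain ITGA2, ARPC2, RAC2 and TNS3. ITGAV, the partner chain of ITGB3, had a median of 1748 against 570.1 with 6 of 8 above. ITGB2, the leukocyte integrin chain, was below the lower quartile in 6 of 8.

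Several macrophage transcripts were scarce in the same 8 barcodes: 5 of 19 compared macrophage identity genes (C1QA, C1QB, CTSS, CD163 and PTPRC) had all 8 below the lower quartile, and none had all 8 above the upper one. C1QA, a complement chain abundant in tissue macrophages, ranged from 0 to 23.9 CPM, against a lower quartile of 1472 and a median of 5427 in the stricter comparator. CTSS, a protease of antigen processing, ranged from 0 to 414 against a lower quartile of 1468. CD163, the haemoglobin scavenger receptor, was detected in 1 of 8. The comparator was itself defined by these genes, so this contrast is partly set by its choice. Antigen presentation genes, of which only CTSS defined a group, were also low: 6 of 13 compared genes had all 8 below the lower quartile, among them CD74 (17.6 to 79.8 against a lower quartile of 1684) and Ovar-DRA (0 UMIs in all 8, which allows up to 2.61 CPM over their sum). Of the genes that macrophages share with osteoclasts, CSF1R ranged from 45.3 to 1364 in the 8 members (median 496 against 362) and lay above the upper quartile in 4 and below the lower one in 2. SPI1 ranged from 226 to 747 (350.0 against 214) and CD68 from 387 to 2012 (729.9 against 430.0), and neither was below the lower quartile in any of the 8.

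**Figure D3:**
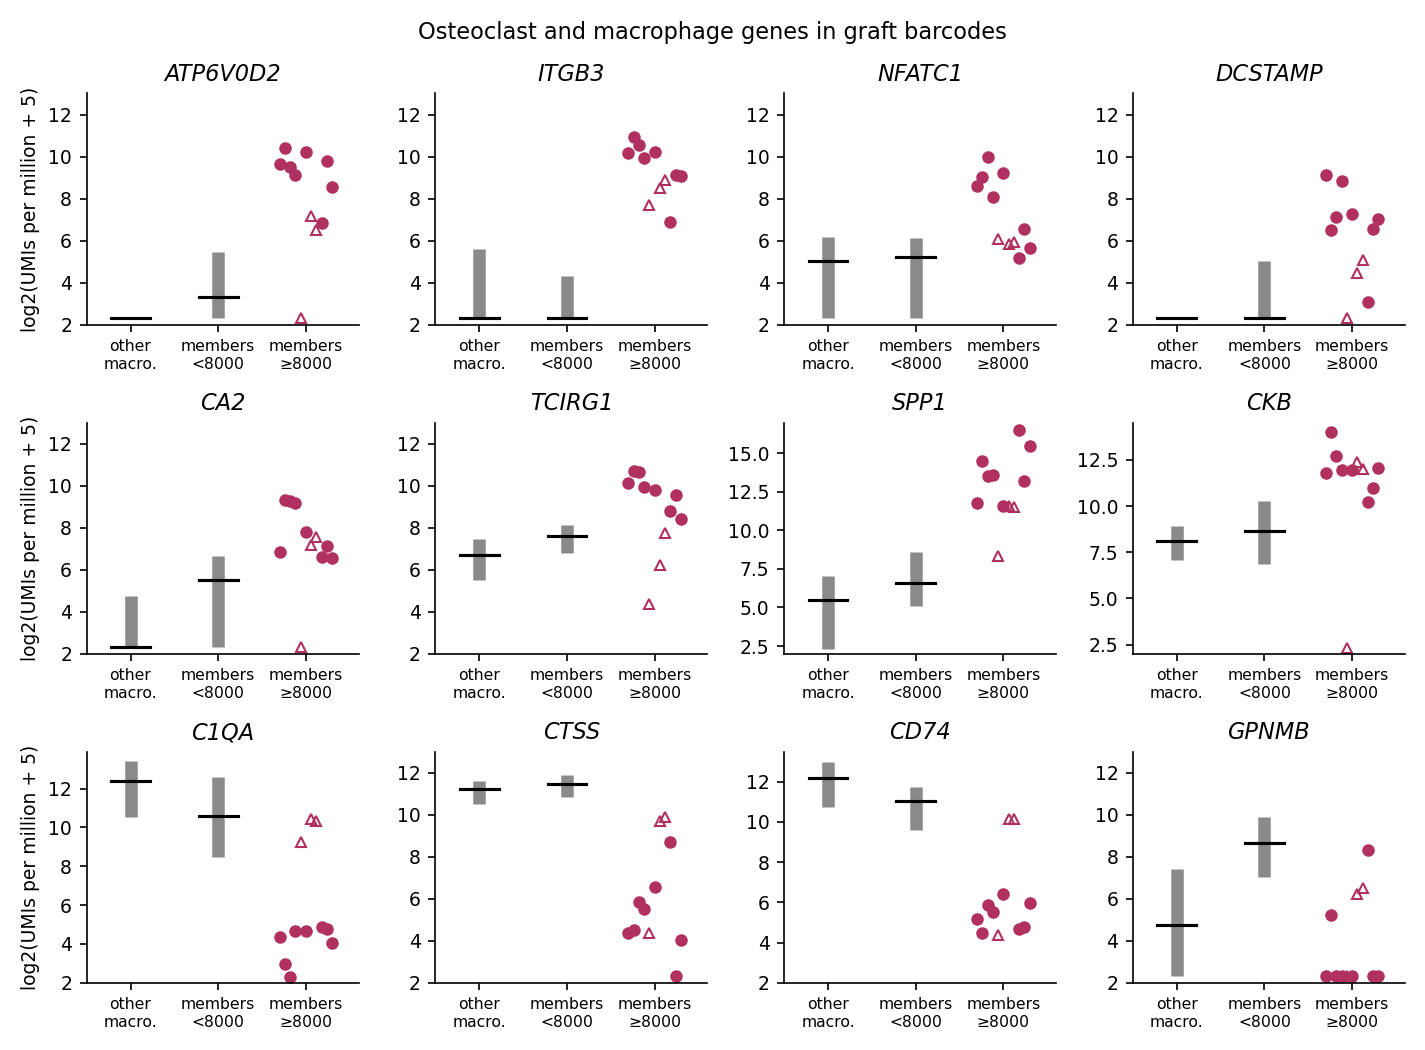
log2 of CPM plus 5 of 12 genes in the 294 barcodes of the stricter macrophage comparator and the 50 lower members (grey bars from the lower to the upper quartile, black line at the median), and in each of the 11 upper members (circles, or open triangles for the 3 with other-type markers). ATP6V0D2, ITGB3, TCIRG1 and CKB are high and C1QA, CTSS and CD74 low in the 8 circles, while the triangles of the seventh and eighth members carry both kinds of gene.

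Most of the 50 lower members carried macrophage genes, and many had high levels of lipid-handling and lysosomal transcripts, while 7 carried markers of other cell types. Their 6 macrophage genes together had a median of 6770 CPM, against 1056 in the upper members and 12258 in the stricter comparator, whose choice sets its own level. Against the stricter comparator, 66 of 10620 compared genes were at least 2-fold higher in the lower members' summed UMIs (0.621%) and 323 at least 2-fold lower (3.04%). Highest were LPL, a lipase of triglyceride uptake, with a log2 ratio of 2.04 after 5 CPM was added to both sides, ENPP1, a phosphodiesterase that makes the mineralisation inhibitor pyrophosphate (2.02), and GPNMB, a glycoprotein of lipid-laden macrophages and osteoclasts (1.94). These genes were ranked after the lower members were set apart, by the same limits as for the whole set. LPL had a UMI in 42 of the 50 and GPNMB in 45.

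By barcode, more than 25 of the 50 lower members lay above the stricter comparator's upper quartile for 189 of 11407 genes (1.66%). These included 11 of the 23 compared lipid macrophage genes, such as TREM2, a lipid receptor (median 328 against 58.2), FABP5, a fatty acid carrier (1278 against 514), LIPA, the lysosomal acid lipase (1303 against 549) and LGALS3, galectin 3 (1197 against 344). CSTB, an inhibitor of cathepsins, had medians of 6222 and 1132 and was above the upper quartile in 38 of 50. The upper members went the other way for several of these: GPNMB and TREM2 were each detected in 2 of the 8, and LIPA was below the lower quartile in 7.

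Proton pump genes were also higher in the lower members, by less than in the upper ones. Of the 19 compared, 11 were above the upper quartile in more than 25 of the 50, with TCIRG1 at a median of 188 against 98.3 and ATP6AP1, an accessory subunit, at 211 against 110.3. Of 35 compared lysosomal hydrolase genes 9 were, including CTSB (3187 against 1586) and CTSD (952 against 409). Of 20 compared glycolysis genes 7 were, including ENO1 (589.8 against 232). None of the 13 antigen presentation genes was, and CD74 lay below the lower quartile in 21 of 50.

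The 5 bins of rule value up to 8000 CPM and the bin above it, over members and comparator together, show which genes differed gradually and which mainly in the top bin. TCIRG1 ran at 34.4, 132, 137, 195, 224 and 932 CPM in the bins from 0, 500, 1000, 2000, 4000 and 8000. ATP6V0D2 ran at 1.18, 4.48, 14.9, 30.3, 33.9 and 670.1 CPM. GPNMB ran from 16.8 CPM in the lowest bin to 933 CPM in the bin from 4000 and stood at 83.4 CPM in the top bin. The bins held 304, 98, 93, 40, 10 and 11 barcodes, so the last 2 are thin, and 216 of the 304 barcodes in the lowest bin carried other-type markers.

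Over all 61 members the summed contrast with the 495 comparator barcodes put 298 of 11410 genes higher by 2-fold or more (2.61%) and 988 lower by as much (8.66%). The log2 ratio over all compared genes had its median at -0.06. Outside the rule the highest were SPP1 (log2 ratio 5.24, 38.5-fold, 37.6 to 39.5), ATP6V0D2 (4.74, 57.5-fold, 46.9 to 71.2), PHETA1, an endosomal adaptor (4.21), MATK, a kinase that restrains SRC (3.94), CKB (3.65) and ANPEP, an aminopeptidase (3.42). OSCAR (3.35), CA2 (3.15), EMB (3.04), RAC2 (2.98), SLC4A2 (2.87), ITGB3 (2.85), PTPN22 (2.84), CCL24 (2.79) and SIGLEC15, a receptor of osteoclast fusion (2.78), completed the 15 highest. For each of the 15, between 30.1 and 65.9% of the members' UMIs came from 1 barcode. With barcodes weighted equally and the stricter comparator, the values were 3.69 for SPP1, 3.52 for ATP6V0D2, 2.64 for PHETA1, 1.91 for CKB and 1.96 for ITGB3. In the lower members alone, with UMIs summed rather than barcodes weighted equally and against the stricter comparator, they were 1.75, 1.56, 0.32, 0.92 and -0.33. The sign of ITGB3 thus turned there, and 1 barcode held 39.2% of the lower members' SPP1 UMIs.

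The 10 genes lowest in the members were led by HMCN1 and included IGFBP3 and EMCN, transcripts of vessel wall cells, with log2 ratios from -5.25 to -4.33. With equal weights and the stricter comparator the same 10 ran from -1.94 to -0.78 (HMCN1 -1.80, EMCN -1.30, IGFBP3 -0.90). Of 11 compared endothelial markers, 10 were at least 2-fold lower, with a list median of -2.99, and of 10 smooth muscle markers 9 (median -1.91). Against the stricter comparator and with equal weights these medians were -0.86 and -0.84, with other-type markers in 20.1% of its barcodes rather than 50.9%.

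By list, 13 of 16 resorption genes and 14 of 19 proton pump genes were at least 2-fold higher and none lower, with medians of 2.23 (1.18 to 2.78) and 1.64 (0.96 to 2.25). Equal weights and the stricter comparator gave 1.13 and 0.99, and the lower members' summed UMIs against the stricter comparator 0.46 and 0.61. Lipid macrophage genes had 11 of 23 higher and 1 lower, with a median of 0.98 that was 0.75 and 0.76 in the same 2 settings. Regulators had 9 of 28 higher with a median of 0.34, whose sign turned to -0.13 and -0.09 in these settings, with 2 and 0 genes higher. Over all compared genes, 206 of 10701 and 66 of 10620 were higher in the same 2 settings. Fusion genes had 5 of 16 higher and 2 lower with a median of 0.20, which was 0.24 and -0.09. Podosome genes had 7 of 38 higher and 1 lower with a median of 0.25, which was 0.19 and 0.01. Nuclear genes of the respiratory chain had none of 34 past 2-fold in either direction (median 0.41, 0.35 to 0.51), and the 13 mitochondrial genes none (0.43). By barcode, however, 6 of these 34 and 3 of these 13 had all 8 upper members without other-type markers above the stricter comparator's upper quartile. Over all compared genes that share was 1.4%. Antigen presentation genes had a median of -0.23, which was -0.97 with equal weights and the stricter comparator. In that setting 6 of 13 were at least 2-fold lower, against 314 of 10701 over all compared genes.

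**Figure D4:**
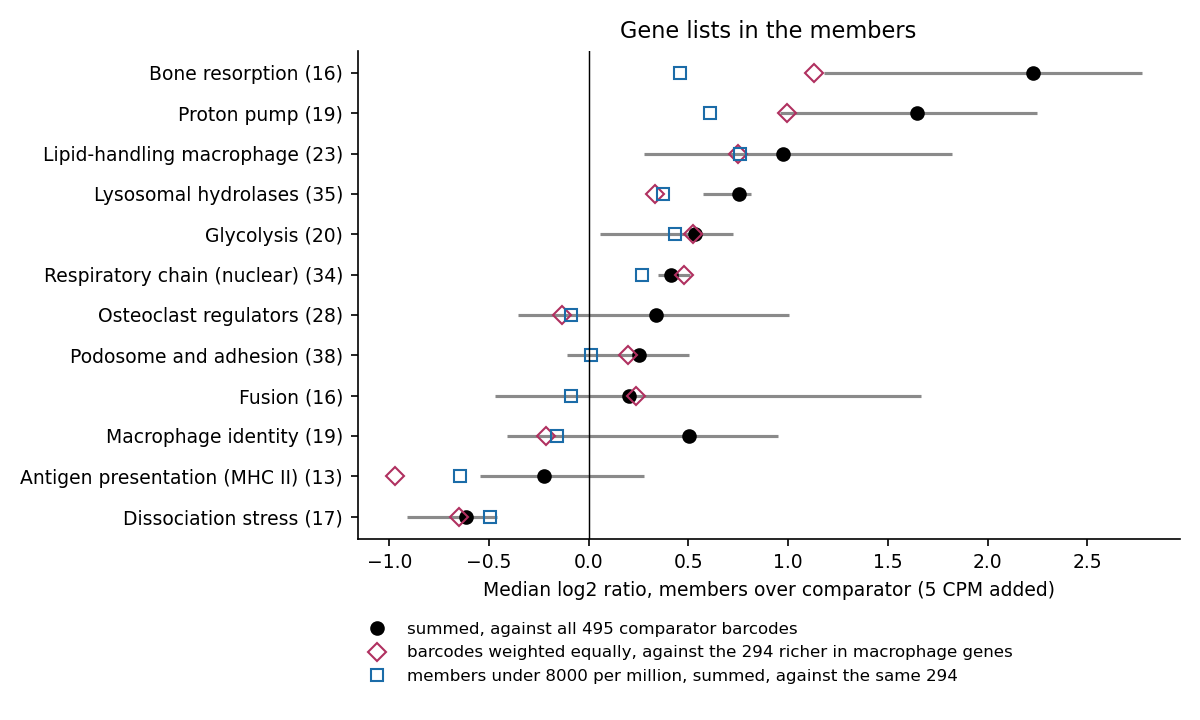
Median log2 ratio (5 CPM added) of members over comparator for 12 gene lists, with the number of compared genes in brackets: all members summed against 495 barcodes (black, line: exact order-statistic 95% interval over genes), barcodes weighted equally against the stricter 294 (red diamonds), and the 50 lower members summed against the same 294 (blue squares). The resorption median goes from 2.23 to 1.13 and 0.46, while the lipid macrophage median stays between 0.75 and 0.98.

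Endothelial, smooth muscle, fibroblast, T and NK or B cell markers reached 10 thinned UMIs of a list in 10 of the 61 members (16.4%, 8.15 to 28.1%): 9 held fibroblast markers, 3 smooth muscle and 1 endothelial markers, with overlaps. These included 2 barcodes that entered almost wholly on MMP9. The fifth member had 1959 MMP9, 16 CTSK and 1 ACP5 UMIs of 63533, with MMP13, a collagenase of stromal cells, at 21123 CPM and fibroblast markers at 5682. The 23rd had 79 MMP9, 1 CTSK and 0 ACP5 UMIs of 20939, with 1 UMI of the 6 macrophage genes, MMP13 at 9599 and fibroblast markers at 6113. It is the only member under 3 macrophage UMIs. A further member led by MMP9, the 58th, had fibroblast markers at 18462 and smooth muscle markers at 9302 CPM, and the fourth, the 54th, had no other-type markers. No member reached 10 thinned UMIs of the T and NK or B cell lists, and LCK, GZMA, GZMB and PAX5 had no UMI in any. Outside these lists, 4 members reached 10 thinned UMIs of the neutrophil list, at up to 6572 CPM, and 4 of the osteoblast and chondrocyte list, at up to 4477 CPM. The neutrophil list stood at 710.3 CPM over the members, 363 in the comparator and 686 in the stricter one, with CSF3R, MPO, ELANE and MMP8 at 0 in the members. The part of these other cell types in the results was not tested; the 8 upper members described above reached 10 thinned UMIs of none of the endothelial, smooth muscle, fibroblast, T and NK or B cell lists.

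The seventh and eighth members carried osteoclast, macrophage and fibroblast transcripts together, with ITGB3 at 363 and 467, C1QA at 1401 and 1301 and fibroblast markers at 10549 and 10071 CPM. Their profiles were the closest of all 1830 pairs of members: with both thinned to 5000 UMIs, a chi-square of their counts was 1.09 per degree of freedom over 167 genes, near the value of 1 that counting alone gives, against 1.55 for the next closest pair and a median of 5.99. At full depth it was 1.92 over 946 genes, against a lowest value of 6.33 among the other pairs of upper members. These barcodes were sequenced as separate droplets with 57825 and 70701 UMIs, and whether they hold RNA of the same cells was not tested. Leaving out the eighth gave 302 genes at least 2-fold higher and 984 lower.

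**Figure D5:**
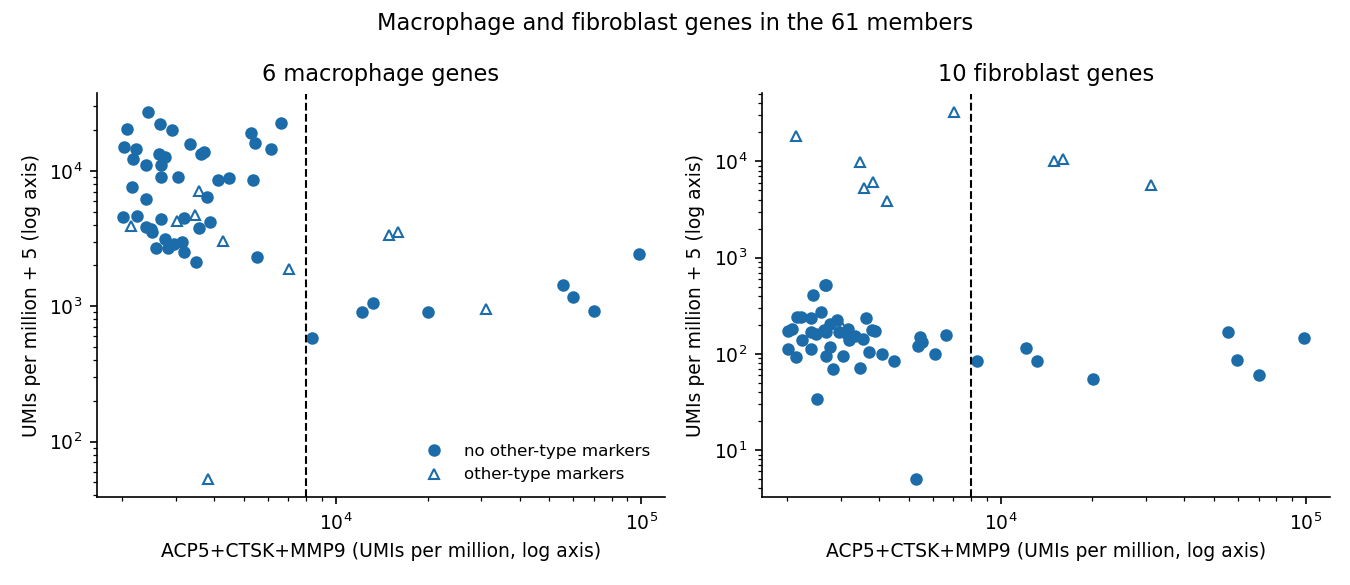
CPM plus 5 (log axes) of the 6 macrophage genes and of 10 fibroblast genes in the 61 members, against their sum of ACP5, CTSK and MMP9; open triangles carry markers of another cell type and the dashed line marks 8000 CPM. The 8 filled points to the right of the line lie at 577 to 2433 CPM of the macrophage genes, and the 3 triangles there at 5682 to 10549 CPM of the fibroblast genes.

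Scrublet scores, a measure of likeness to simulated doublets, had a median of 0.0335 in the members and 0.0306 in the comparator, and none of the members was among the 5 of 792 barcodes marked as doublets. The 10 members with other-type markers had a median of 0.0590, and 4 of them were above the 90th percentile of all kept graft barcodes. The median mitochondrial share was 3.69% in the members and 2.54% in the comparator, and it reached 11.9, 10.6 and 9.80% in 3 upper members. The part of doublets, depth and mitochondrial share in the values above was not tested.

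Clustering of the 792 graft barcodes without ACP5, CTSK and MMP9 placed the members in 7 of 17 clusters. A single cluster of 90 barcodes, led by SPP1, ATP6V0D2 and CCL24, held 39 members, among them 10 of the 11 upper ones, and 49 comparator barcodes. Clusters rich in macrophage genes held 8 and 7 further members, all of them lower ones. A cluster led by stromal genes such as EDNRA and FGF7 held 3, among them the fifth and the 23rd. At a finer resolution, the upper members fell into 3 clusters, with 7 of them in a cluster of 10 barcodes. At a coarser resolution, 10 upper members lay in a cluster of 125 barcodes. These clusters use all other genes of the same cells and are no independent support for the set.

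Within the members, the thinned sum of the 3 selecting genes went with ITGB3 (Spearman's rho 0.67 over 61 barcodes of 1 library), ATP6V0D2 (0.52), CKB (0.43) and SPP1 (0.42), and against macrophage identity genes (-0.40) and C1QA (-0.34). Among the osteoclast lists, resorption (0.51), proton pump (0.31) and podosome genes (0.22) went with it. Fusion genes (-0.38) and regulators (-0.14) went against it. At 5000 UMIs many of the single-gene counts are 0 or 1, and the barcodes share a library and were chosen by the same 3 genes, so these values describe the set.

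In the native artery, 2 of 2765 barcodes within the same limits met the rule (0.0723%, 0.00876 to 0.261%). Both entered on CTSK: the first had 14 CTSK UMIs of 5886 with 77 UMIs of COL1A1, 70 of the fibroblast proteoglycan DCN and 1 of the 6 macrophage genes. The other had 21 CTSK and 6 ACP5 UMIs of 12532 with 216 macrophage UMIs. Neither held a UMI of MMP9, ATP6V0D2 or SPP1. In the 614 native barcodes with macrophage markers, MMP9 and ATP6V0D2 had 0 UMIs of 9188322, which allows up to 0.327 CPM, and SPP1 had 6.

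Against these native macrophage barcodes, 789 of 10631 genes were at least 2-fold higher in the members (7.42%) and 1046 at least 2-fold lower (9.84%). Resorption genes had 13 of 15 higher (median log2 ratio 2.42), proton pump genes 14 of 18 (1.97) and lipid macrophage genes 19 of 23 (2.46). Antigen presentation genes had 9 of 13 lower (-1.52). Dissociation-response genes had 14 of 17 lower (-1.59), and smooth muscle markers 5 of 8 higher (1.33). The smooth muscle sums follow a few members with other-type markers. The 58th and 12th stood at 9302 and 4780 CPM of these markers, with 161145 and 277393 UMIs, against a median of 48.4 CPM over all members. The native barcodes had a median of 13610 UMIs, and tissue, library and depth cannot be told apart here.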

How the data were processed

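The deposited values are whole-number UMI counts per gene and barcode in filtered matrices, made by the authors with Cell Ranger 7.2.0 per the file headers. Seurat 5.0.0 in R 4.3.3 and bcl2fastq 2.20.0.422 are listed in the submitters' processing notes. The genome build and how barcodes were filtered are not given in the sources used here. Of 21890 listed genes 15455 have a symbol; the others held 17.5% of the members' UMIs and were not compared.

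UMIs were summed per group and scaled to 1000000 (CPM), and log2 ratios taken after adding 5 CPM for genes with at least 30 UMIs over both groups. With 1 library a group no test was made. Intervals are exact Poisson, binomial or order-statistic ones at 95%. Named genes are the 15 highest and 10 lowest log2 ratios at 50 CPM or more in the higher group, the higher ones with a UMI in at least 25% of members, without rule, mitochondrial, ribosomal, haemoglobin and immunoglobulin genes or genes at less than 1/4 of their level in other graft barcodes. Barcodes were thinned with a fixed seed. Clusters (2000 variable genes, 30 components, 15 neighbours, Leiden resolution 1) and Scrublet were run in scanpy 1.11.5, and no barcode was removed as a doublet. Markers of another cell type mean at least 10 thinned UMIs of 1 list. The ratio code was tested on simulated data. Members and gene lists were chosen with earlier results of these data known. Promoter sequences were not used here.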

Additional observations from a re-analysis of the deposited data

How the results depend on the processing

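The level sets the size of the set: 156 barcodes at 1000 CPM with the comparator below it and 21 at 4000, against 61. The number of genes at least 2-fold higher, 298, was 163 with 20 CPM added, and 66 for the lower and 520 for the upper members against the stricter comparator. The number at least 2-fold lower, 988, was 1673 with 1 CPM and 490 with 20 CPM added, and 485 against the stricter comparator. It was 314 with equal weights as well, 323 for the lower members and 1706 for the upper ones. The proton pump median of 1.64 was 0.61 for the lower members and ran from 0.99 to 2.20 in every other setting, and without the member with the most UMIs it was 1.36. Of 298 genes higher, 162 were also higher against the stricter comparator and 188 with barcodes weighted equally. The ITGB3 log2 ratio turned from 2.85 to -0.33 in the lower members, and the mast cell list median, over 3 genes with few UMIs, from -1.65 to 0.78 at 1000 CPM. Over the medians of all lists except the proton pump one, and all settings, 500 of 579 values stayed within the main interval or, for lists without one, within 1.5-fold. The settings that split members at 8000 CPM, combine equal weights with the stricter comparator, or leave out the deepest member or 1 of the near-identical pair were chosen after seeing the data. Depth limits genes such as OCSTAMP, with no UMI left at 5000 UMIs. No paired analysis was possible because each group holds 1 library.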
